A study of Mus musculus with 6 samples.

Results

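The genes of the constitutive proteasome were followed in infarcted and sham-operated mouse hearts. Members were the genes whose mouse symbol belongs to the numbered Psma, Psmc, Psmd or Psme series or runs from *Psmb1* to *Psmb7*, with pseudogenes left out. A table of gene names holds 42 such genes, and 41 of them were listed with a value in at least 1 library, among 17441 listed genes in all. *Psme2b* was not among the listed genes. The values were FPKM, that is fragments scaled to transcript length and to the mapped fragments of the library. A filter that kept genes reaching an FPKM of 1 in 2 or more of the 6 libraries left 40 members and 13120 genes in all. *Psma8*, a testis form of an outer-ring subunit, did not pass: it had 0.19 and 0.20 FPKM in the sham hearts, 0.59 and 0.45 in the WT MI hearts, and 0.86 in *Card9* KO MI replicate 2, while the file of *Card9* KO MI replicate 1 did not list it, which was taken as 0.

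The study sequenced polyadenylated RNA from the hearts of 12-week-old male mice on a C57BL/6 background, 3 days after surgery. WT Sham mice had wild-type alleles and a sham operation. WT MI mice had wild-type alleles and a myocardial infarction made by tying the left coronary artery, and *Card9* KO MI mice carried a *Card9* knockout with the same ligation. Each group had 2 libraries, the tissue came from below the ligature, and no sham-operated knockout group is among the libraries. The labels do not say how many hearts went into a library, so the p-values given here measure the spread between these samples.

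The proteasome is the protease complex that destroys proteins tagged with ubiquitin. Its barrel-shaped 20S core particle has outer rings of alpha subunits, which gate the entrance, around inner rings of beta subunits, which carry the cutting sites. A 19S regulatory particle, made of an ATPase base and a lid, recognises, unfolds and feeds in the tagged proteins, and the joined form is the 26S proteasome. In heart muscle it turns over sarcomere and signalling proteins, and cells are known to raise its subunit genes together when its activity is inhibited.

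*Card9*, the gene named in the genotype, was examined first. Its FPKM was 0.99 and 1.03 in WT Sham, then 3.39 and 5.08 in WT MI, then 9.85 and 6.94 where the libraries are labelled *Card9* KO MI. Both libraries labelled as knockout thus stood above both WT MI libraries, with a log2 fold change of 0.85 (SE 0.23, limma adjusted p = 0.112) against WT MI. The gene lies at chr2:26207696-26216438 on the minus strand of mm9. The files give 1 value per gene and no exon values, so whether part of the transcript was missing was not tested. The gene-level FPKM of *Card9* was thus not lower in the libraries labelled as knockout. Every direction given below for these libraries, called the KO-labelled libraries, rests on the label. Of all genes tested, *Lcn2* had the lowest log2 fold change in the KO-labelled libraries against WT MI, -4.86. The paper reports lower *Lcn2* expression in *Card9* knockout hearts after infarction, from its sequencing and by qPCR. Its sequencing result comes from these same libraries, so the value given here is not a separate observation. Whether the label is right was not tested.

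Among the 40 tested members were 14 subunits of the core particle, 17 of the regulatory particle, 3 chaperones that assemble the base and 4 alternative activators. The other 2, *Psmc3ip* and *Psme3ip1*, were matched by name only: they encode a meiotic recombination factor and a binding partner of *Psme3*, and their log2 fold changes in WT MI against WT Sham were 0.05 and 0.07. Because FPKM is scaled to transcript length, levels can be set side by side between genes. In every library *Psmb7*, the trypsin-like beta subunit, had the highest FPKM of the core and the alpha subunit *Psma5* the lowest. The ratio of *Psmb7* to *Psma5* FPKM was 4.44 and 4.38 in WT Sham, then 2.63 and 2.86 in WT MI, then 2.75 and 2.98 in the KO-labelled libraries. The core genes thus lay closer together in the 4 infarcted libraries than in the 2 sham libraries. In the regulatory particle *Psmd14*, the deubiquitinase of the lid, was the lowest in all 6 libraries, and the ATPase *Psmc3* was the highest in all but *Card9* KO MI replicate 1, where it was the lid subunit *Psmd8*. The chaperones lay far below the subunits they assemble, between 4.56 and 11.92 FPKM over the 6 libraries.

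**Figure D1:**
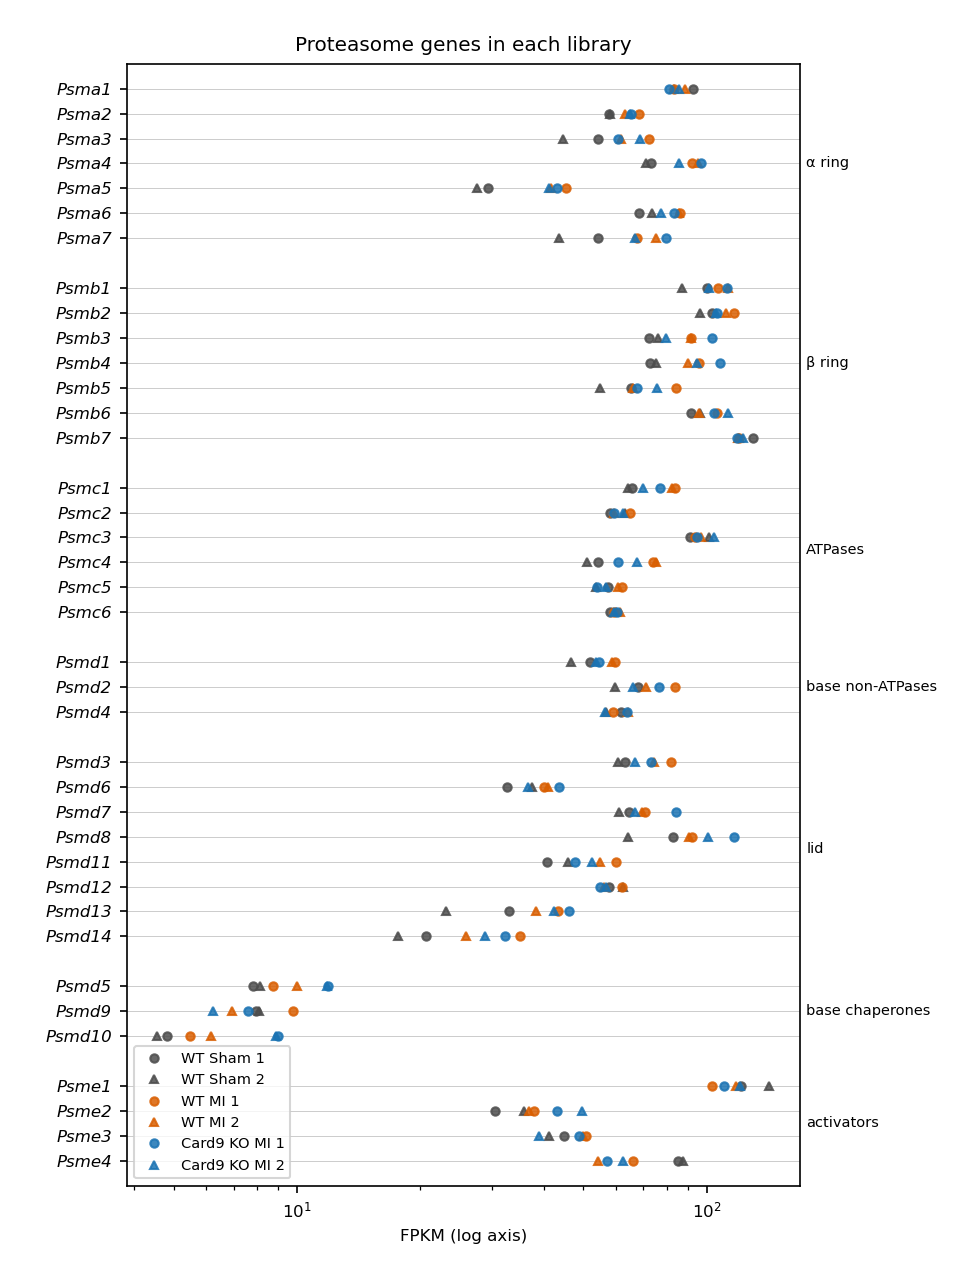
FPKM (log axis) of each tested subunit, chaperone and activator in each of the 6 libraries, grouped by role, with circles for replicate 1 and triangles for replicate 2. *Psmd5*, *Psmd9* and *Psmd10* lie below 12 FPKM, and the WT Sham points of *Psma5* (29.2 and 27.44 FPKM) lie to the left of the other 4.

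In the mm9 annotation 40 of the 41 listed members have a position, on 16 chromosomes, with 9 of them on chromosome 11. *Psma5* lies at chr3:108059844-108082892, *Psmd14* at chr2:61549751-61638433 and *Psme4* at chr11:30671726-30780361, all on the plus strand, and *Psmc4* at chr7:28826726-28835120 on the minus strand. Exons of 10 members overlap those of another gene, 7 of them those of a protein-coding gene: *Psma4*, *Psmb7*, *Psmc3*, *Psmc3ip*, *Psmd1*, *Psmd13* and *Psme1*. Whether strand was used in counting is not given in the sources used here, so reads of these genes and of their partners cannot be told apart.

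Promoter windows of 300 bases, from 250 bases before the start, were read from the RefSeq table for GRCm38.p6, which held 38 windows for 34 of the 41 members. *Psma8*, *Psmb1*, *Psmb2*, *Psmb7*, *Psmc3*, *Psmd3* and *Psmd7* had none. The 4 motifs searched, on both strands, were TGACNNNGC and TGAGNNNGC, forms of the antioxidant response element that *Nfe2l1* and *Nfe2l2* bind, CCGGAAG, an ETS core, and CCAAT. TGACNNNGC or TGAGNNNGC stood in 17 of the 38 member windows (44.7%) and in 27.8% of all 32851 windows. CCGGAAG stood in 15 member windows (39.5%) and in 8.86% of all windows, while CCAAT stood in 14 (36.8%) and in 37.4% of all windows. These are descriptions of letters and not of binding. The windows of the 3 members called higher under the most scalings in WT MI against WT Sham, and of the single member called lower there on the deposited scale, were chosen after the values were seen and are printed with matches of TGACNNNGC, TGAGNNNGC and CCGGAAG in capitals. They are *Psma5* (chr3:108256676-108256975, plus strand), *Psmc4* (chr7:28050043-28050342, minus strand), *Psmd14* (chr2:61711444-61711743, plus strand) and *Psme4* (chr11:30771525-30771824, plus strand).
Psma5: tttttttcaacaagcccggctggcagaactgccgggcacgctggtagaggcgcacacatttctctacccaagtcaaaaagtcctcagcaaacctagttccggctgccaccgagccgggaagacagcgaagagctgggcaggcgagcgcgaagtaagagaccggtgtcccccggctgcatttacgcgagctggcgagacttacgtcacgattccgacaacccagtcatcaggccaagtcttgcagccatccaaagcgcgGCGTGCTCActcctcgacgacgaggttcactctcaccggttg
Psmc4: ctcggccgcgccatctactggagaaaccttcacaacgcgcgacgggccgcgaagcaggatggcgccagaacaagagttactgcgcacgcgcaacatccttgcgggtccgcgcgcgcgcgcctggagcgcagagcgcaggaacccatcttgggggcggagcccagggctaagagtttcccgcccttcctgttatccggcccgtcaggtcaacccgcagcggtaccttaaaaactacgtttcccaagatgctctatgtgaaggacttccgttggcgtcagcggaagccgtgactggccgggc
Psmd14: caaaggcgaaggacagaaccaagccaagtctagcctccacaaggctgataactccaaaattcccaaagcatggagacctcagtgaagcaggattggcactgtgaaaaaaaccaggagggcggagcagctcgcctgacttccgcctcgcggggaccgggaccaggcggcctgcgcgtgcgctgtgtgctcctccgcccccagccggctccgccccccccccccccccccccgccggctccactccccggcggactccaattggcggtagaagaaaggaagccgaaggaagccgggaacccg
Psme4: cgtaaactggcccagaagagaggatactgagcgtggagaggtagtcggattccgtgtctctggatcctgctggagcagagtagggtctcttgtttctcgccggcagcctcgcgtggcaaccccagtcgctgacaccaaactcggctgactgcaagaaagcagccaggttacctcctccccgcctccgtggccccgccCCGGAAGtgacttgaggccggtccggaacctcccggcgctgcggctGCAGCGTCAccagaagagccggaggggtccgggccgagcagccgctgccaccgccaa
The match in *Psma5* is a TGAGNNNGC on the minus strand that begins 8 bases after the start. In *Psme4* a CCGGAAG begins 53 bases before the start and a TGACNNNGC on the minus strand begins 7 bases before it. The windows of *Psmc4* and *Psmd14* hold none of these letters.

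WT MI was compared with WT Sham to see how infarction altered the proteasome genes at 3 days. On the FPKM as deposited, 11 of 40 members rose in WT MI (27.5%) and 1 fell (2.5%), by limma on log2(FPKM + 1) with Benjamini-Hochberg adjustment over all 13120 genes at an adjusted p under 0.05. Of all genes tested, 27.7% rose and 9.39% fell, so on this scale the share of members that rose lay at the background and is not a result about the proteasome. The median log2 fold change was 0.22 over the members and 0.19 over all genes tested, and 23 of 40 members lay above the median of all genes. In 27 members both WT MI libraries were above both WT Sham libraries and in 3 both were below, against 48.3% and 22.1% of all genes. No member changed by more than 1 on the log2 scale, and 5 changed by more than 0.5, while 1786 and 4976 of the 13120 genes did so. Deposited FPKM are shares of a library, and other scalings moved the median of all genes from 0.19 to -0.0034 (upper quartile), -0.09 (quantile normalization) and 0.06 (without the 100 most abundant genes). With those scalings 1, 2 and 3 members rose, against 19.6%, 16.8% and 21.9% of all genes, and 3, 2 and 2 fell, against 16.8%, 18.7% and 13.9%. Both shares were thus smaller in the members than in all genes, a difference that was not tested. The sign of 13, 12 and 8 members changed, and no member called on the deposited scale changed sign.

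In the alpha ring 4 of 7 genes rose on the deposited scale, against 27.7% of all genes tested, a difference that was not tested. *Psma5*, one of the alpha subunits that the first assembly chaperone of the core binds, had FPKM of 29.2 and 27.44 in WT Sham against 45.45 and 41.67 in WT MI. All infarcted libraries lay well above both sham libraries, and the log2 fold change was 0.60 (SE 0.10, limma adjusted p = 0.00304). *Psma5* was called under all 11 alternative limma settings and with any of the 6 libraries left out, with log2 fold changes from 0.39 to 0.66, the lowest under upper-quartile scaling. *Psma7*, whose tail helps close the gate of the core, was at 54.41 and 43.71 FPKM in WT Sham against 67.55 and 75.09 in WT MI. The groups did not overlap (log2 fold change 0.54, SE 0.14, adjusted p = 0.0184), but the call was lost without WT Sham replicate 2 (adjusted p = 0.102), WT MI replicate 1 (0.053) or WT MI replicate 2 (0.106). *Psma3* and *Psma4* rose by 0.44 and 0.37 on the log2 scale (adjusted p = 0.0355 and 0.0201). Without WT Sham replicate 2, WT MI replicate 1 or WT MI replicate 2 the adjusted p was 0.182, 0.197 and 0.051 for *Psma3*, and 0.0886, 0.0781 and 0.104 for *Psma4*, which was also lost without WT Sham replicate 1 (0.0603). None of these 3 was called under the other scalings. *Psma6* lay just outside the threshold, with 68.53 and 73.5 FPKM in WT Sham against 86.19 and 85.52 in WT MI (log2 fold change 0.27, adjusted p = 0.0514). *Psma1* had the lowest change of the ring, -0.03 (adjusted p = 0.81), and its groups overlapped.

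In the beta ring 1 of 7 genes rose, against 27.7% of all genes tested. *Psmb4*, a structural beta subunit without a cutting site, went from 72.81 and 75.24 FPKM in WT Sham to 95.78 and 90.01 in WT MI. Its groups were apart (log2 fold change 0.32, SE 0.10, adjusted p = 0.0355), and the call was lost under each of the 3 other scalings and without WT Sham replicate 1 (adjusted p = 0.129), WT Sham replicate 2 (0.094), WT MI replicate 1 (0.175) or WT MI replicate 2 (0.0873). The 3 catalytic subunits were not called. *Psmb5*, which cuts after hydrophobic residues, was at 65.22 and 54.85 FPKM in WT Sham against 84.36 and 66.22 in WT MI (log2 fold change 0.32, SE 0.14, adjusted p = 0.123). *Psmb6*, which cuts after acidic residues, was at 91.33 and 96.24 FPKM in WT Sham against 105.9 and 95.92 in WT MI, so its groups overlapped (log2 fold change 0.10, adjusted p = 0.437, negative under all 3 other scalings). *Psmb7* was at 129.51 and 120.16 FPKM in WT Sham against 119.76 and 119.14 in WT MI. The *Psmb7* groups were narrowly apart in the opposite direction (log2 fold change -0.06, adjusted p = 0.611), and upper-quartile scaling called this gene lower, at -0.28 (adjusted p = 0.0392).

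In the base 2 of 6 ATPases rose, against 27.7% of all genes tested. *Psmc4* had FPKM of 54.36 and 50.92 in WT Sham against 73.91 and 75.12 in WT MI. The gap between its groups was far wider than that between its replicates (log2 fold change 0.49, SE 0.10, adjusted p = 0.00623), and the call held with any library left out but not under upper-quartile scaling (0.27, adjusted p = 0.0688). *Psmc1* rose by 0.35 on the log2 scale (adjusted p = 0.0212), a call lost under each of the 3 scalings and without either library of WT Sham (adjusted p = 0.0648 and 0.0891) or of WT MI (0.108 and 0.0819). *Psmc3*, whose groups overlapped, had the lowest change of the ATPases at -0.01 (adjusted p = 0.933). None of the 3 base subunits without ATPase activity was called: *Psmd2*, a scaffold on which ubiquitin-like proteins dock, had the highest log2 fold change at 0.27 (adjusted p = 0.127). The ubiquitin receptor *Psmd4* had the lowest, with FPKM of 61.82 and 56.76 in WT Sham against 59.13 and 64.09 in WT MI. Its libraries overlapped (log2 fold change 0.05, SE 0.11, adjusted p = 0.721), and the value was negative under all 3 other scalings and without WT Sham replicate 2 or WT MI replicate 2.

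In the lid 4 of 8 genes rose on the deposited scale, against 27.7% of all genes tested, a difference that was not tested. *Psmd14*, the metalloprotease that takes ubiquitin chains off bound proteins, was at 20.59 and 17.65 FPKM in WT Sham against 35.06 and 25.9 in WT MI. Its WT MI replicates differed more than those of most members, yet both were above WT Sham (log2 fold change 0.63, SE 0.16, adjusted p = 0.0176). The call was lost under upper-quartile scaling (adjusted p = 0.0697) and quantile normalization (0.0747), and without WT Sham replicate 2 (0.0914) or WT MI replicate 1 (0.108). *Psmd13*, *Psmd11* and *Psmd3*, scaffold subunits of the lid, rose by 0.54, 0.40 and 0.33 on the log2 scale (adjusted p = 0.0351, 0.0223 and 0.0353), and none was called under the 3 other scalings. Without WT Sham replicate 1 the adjusted p was 0.111 for *Psmd11* and 0.0838 for *Psmd3*, and without WT Sham replicate 2 it was 0.158 for *Psmd13* and 0.135 for *Psmd3*. Without WT MI replicate 1 it was 0.169, 0.131 and 0.193 for *Psmd13*, *Psmd11* and *Psmd3*, and without WT MI replicate 2 it was 0.074, 0.0562 and 0.0656. *Psmd12* had the lowest change of the lid, -0.02 (adjusted p = 0.884), with overlapping groups.

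*Psma2*, *Psmb1*, *Psmb2*, *Psmb3*, *Psmc2*, *Psmc5*, *Psmc6*, *Psmd1*, *Psmd6*, *Psmd7* and *Psmd8*, the other subunits of both particles, were not called on the deposited scale. None of the 3 base chaperones was called in WT MI against WT Sham. Their log2 fold changes ran from 0.04 for *Psmd9* (adjusted p = 0.893) to 0.26 for *Psmd10* (adjusted p = 0.195). *Psmd9* was negative under all 3 other scalings and without WT MI replicate 1, and *Psmd10* under quantile normalization.

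Of the 4 activators, which cap the core in place of the regulatory particle, *Psme4* fell. This gene encodes a large activator that works without ATP, and its FPKM was 84.94 and 87.6 in WT Sham against 66 and 54.37 in WT MI. Both WT MI libraries were lower (log2 fold change -0.52, SE 0.11, adjusted p = 0.0104). *Psme4* was called lower under all 11 alternative limma settings, but not without WT Sham replicate 2 (log2 fold change -0.50) or WT MI replicate 2 (-0.38). *Psme1* and *Psme2* form the 11S activator that interferon gamma induces. *Psme1* was at 121.48 and 141.87 FPKM in WT Sham against 102.99 and 117.6 in WT MI, and its log2 fold change of -0.25 (adjusted p = 0.124) was called lower under each of the 3 other scalings. *Psme2* was at 30.35 and 35.75 FPKM in WT Sham against 37.97 and 36.75 in WT MI (log2 fold change 0.18, adjusted p = 0.294, negative under upper-quartile scaling and quantile normalization). These partners in 1 ring thus lay on opposite sides of 0 on the deposited scale, with neither called. Their nuclear relative *Psme3* was at 0.23 (adjusted p = 0.189).

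**Figure D2:**
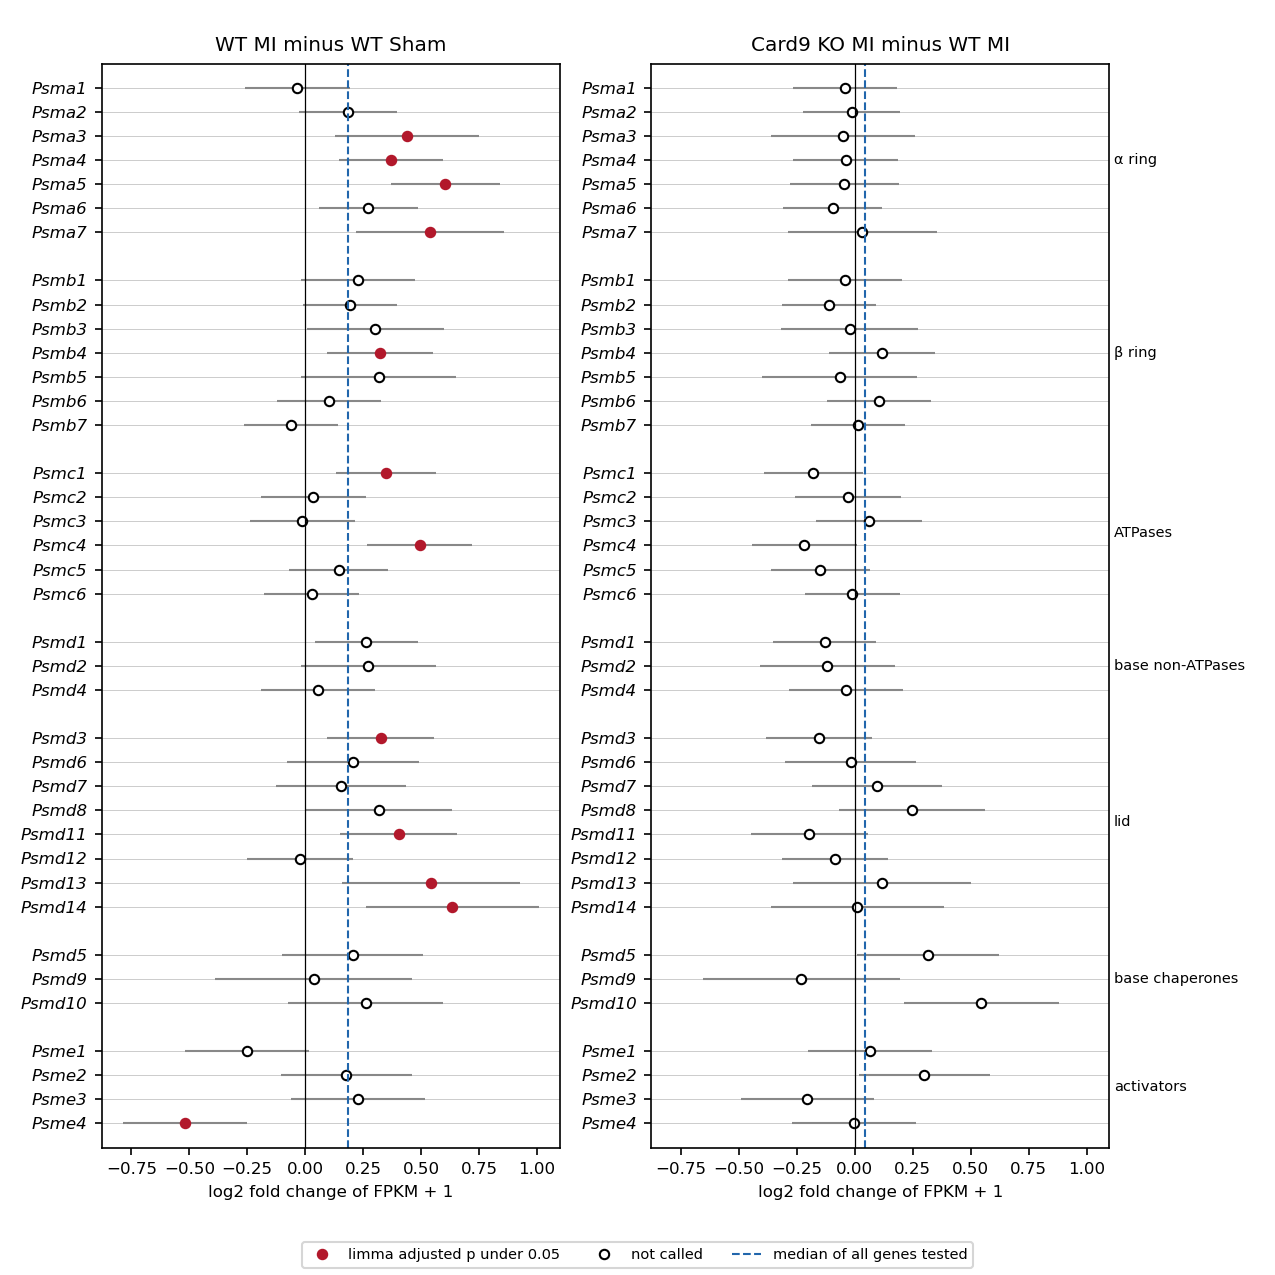
Log2 fold change of FPKM + 1 with its 95% confidence interval for each tested subunit, chaperone and activator, in WT MI minus WT Sham and in the KO-labelled libraries minus WT MI; filled points have a limma adjusted p under 0.05 and the dashed line is the median of all genes tested. On the deposited scale shown, 11 members were called higher and *Psme4* lower after infarction, counts that became 1 and 3 under upper-quartile scaling, and no member was called in the second comparison.

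The calls in WT MI against WT Sham rested on single libraries and on the scale. Leaving out either library of WT Sham or of WT MI lowered the number of members called higher, and also that of all genes. The loss was larger in proportion among the members, a difference that was not tested. The count called lower was 0 without WT Sham replicate 2 or WT MI replicate 2. *Psma5* and *Psmc4* were the only members called higher with each of the 6 libraries left out. *Psma5* alone rose under all 3 other scalings, where upper-quartile scaling called *Psmb7*, *Psme1* and *Psme4* lower and the other scalings called *Psme1* and *Psme4* lower. Among all genes, 3637 were called higher and 1232 lower on the deposited scale, 2576 and 2202 after upper-quartile scaling, 2198 and 2447 after quantile normalization, and 2869 and 1830 without the 100 most abundant genes.

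**Figure D3:**
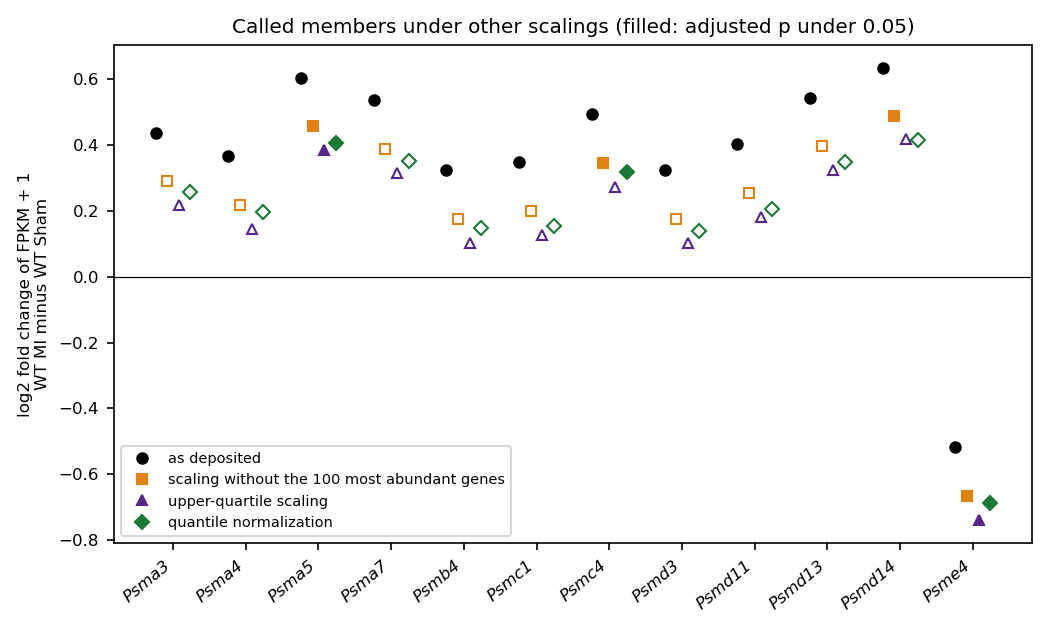
Log2 fold change of FPKM + 1 in WT MI minus WT Sham for the 12 members called on the deposited scale (black circles) and under 3 other scalings, with filled symbols for a limma adjusted p under 0.05. All 36 recomputed values keep their sign, while *Psma5* alone stays filled above 0 under every scaling (0.39 to 0.46) and *Psme4* below 0 (-0.74 to -0.67).

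The core and the regulatory particle were then set side by side. The FPKM of the core genes summed to 1065 and 1008 in WT Sham, then 1236 and 1199 in WT MI, then 1228 and 1183 in the KO-labelled libraries. The regulatory particle genes summed to 962 and 929 in WT Sham, then 1126 and 1080.17 in WT MI, then 1099 and 1047 in the KO-labelled libraries. Both sums were higher in all 4 infarcted libraries than in both sham libraries, and the ratio of core to regulatory sum ran only from 1.08 to 1.13. As shares of the summed FPKM of a library the core took 0.218% and 0.210% in WT Sham, then 0.260% and 0.251% in WT MI, then 0.260% and 0.252% in the KO-labelled libraries. The mean log2 fold change in WT MI against WT Sham was 0.27 over the core and 0.25 over the regulatory particle, a difference of 0.02, against a median of 0.19 over all genes; with upper-quartile scaling the means were 0.05 and 0.03. The core minus regulatory particle log2 difference was 0.0346 without WT Sham replicate 1, 0.0105 without WT Sham replicate 2 and 0.0127 without WT MI replicate 2. Of the core 5 of 14 genes rose and of the regulatory particle 6 of 17, against 27.7% of all genes tested. The difference between particles was not tested, since members are not replicates. Within each library the mean log2(FPKM + 1) of the core exceeded that of the regulatory particle by 0.42 and 0.39 in WT Sham, then 0.42 and 0.44 in WT MI, then 0.45 and 0.46 in the KO-labelled libraries. The KO-labelled libraries had the largest differences of the 6, and the pooled SD within groups was 0.0143.

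**Figure D4:**
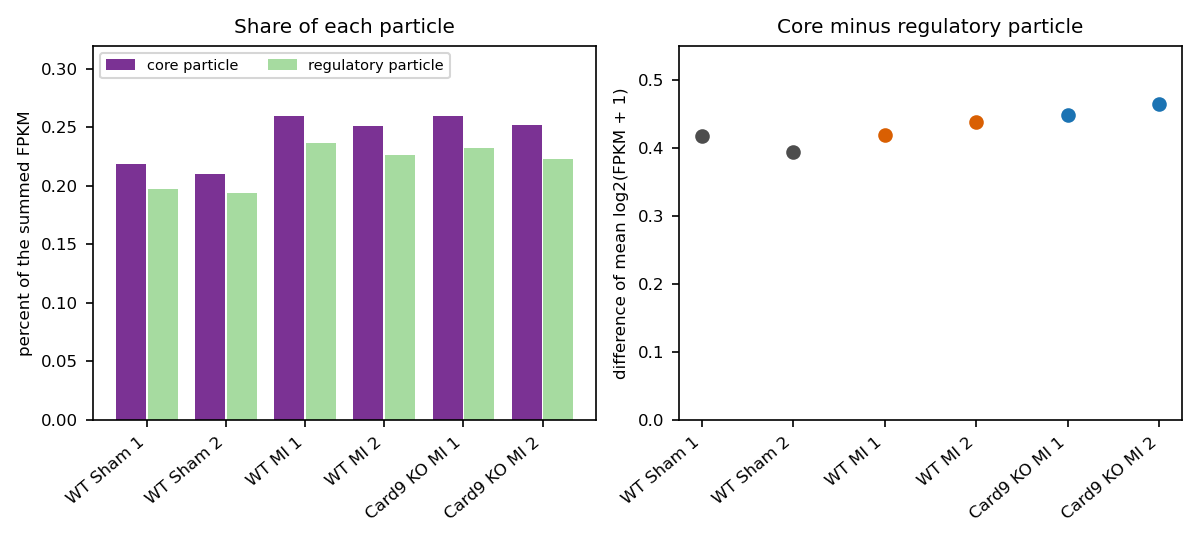
Left, percent of each library's summed FPKM taken by core genes (0.210% to 0.260%) and by regulatory particle genes (0.194% to 0.237%); right, mean log2(FPKM + 1) of the core minus that of the regulatory particle in each library. Both bars are higher in the 4 infarcted libraries, and the difference between particles lies between 0.39 and 0.46 in all 6.

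The KO-labelled libraries were compared with WT MI to set the infarcted groups that differ by the *Card9* label side by side. No member was called in either direction by limma, against 0.816% of all genes called higher and 0.587% called lower. At an unadjusted p under 0.05 there were 3 members, all higher, where 2629 of the 13120 genes passed this threshold and 1504 of them were higher. This is a smaller share of the members than of all genes. The screen of the study, recomputed on group means (a fold change of at least 2 and a probability of at least 0.8), passed 0 members, against 0.728% of all genes higher and 0.332% lower. The share of 0 of 40 lies near the background and is not a result about the proteasome. The median log2 fold change was -0.02 over the members and 0.04 over all genes tested, and 15 members were positive and 25 negative. In 4 members both KO-labelled libraries were above both WT MI libraries and in 9 both were below, against 30.8% and 21.9% of all genes. The median half-width of the unadjusted 95% confidence intervals of the members was 0.25 on the log2 scale. The count was 0 in each of 17 other fits, including each library left out.

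The 3 members with an unadjusted p under 0.05, named after their values were seen, were *Psmd10*, *Psmd5* and *Psme2*. *Psmd10*, a chaperone of the base also known as an oncoprotein of liver, was at 5.47 and 6.16 FPKM in WT MI against 9 and 8.87 in the KO-labelled libraries. The latter were the highest of the 6 libraries, and the log2 fold change of 0.55 (SE 0.14, 95% interval 0.21 to 0.88) had an adjusted p of 0.105, the smallest of the members. *Psmd5*, which holds the ATPases during assembly, was at 8.74 and 9.97 FPKM in WT MI against 11.92 and 11.83 in the KO-labelled libraries (log2 fold change 0.32, adjusted p = 0.233). The third chaperone, *Psmd9*, had the lowest log2 fold change of the 40 members, -0.23 (adjusted p = 0.533), with overlapping groups. *Psme2* was at 37.97 and 36.75 FPKM in WT MI against 43.02 and 49.73 in the KO-labelled libraries (log2 fold change 0.30, adjusted p = 0.221). Its partner *Psme1* overlapped between the groups (log2 fold change 0.07, adjusted p = 0.802). *Psme3* was at -0.20 (adjusted p = 0.407) and *Psme4* at -0.0035 (adjusted p = 0.992).

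No subunit of either particle reached an unadjusted p under 0.05 between these groups. Log2 fold changes in the alpha ring ran from -0.09 for *Psma6* to 0.03 for *Psma7*, and in the beta ring from -0.11 for *Psmb2* to 0.12 for *Psmb4*. The catalytic subunits *Psmb5*, *Psmb6* and *Psmb7* were at -0.07, 0.10 and 0.01 (adjusted p = 0.847, 0.599 and 0.954). Among the ATPases *Psmc4* was lowest at -0.22 (95% interval -0.44 to 0.01, adjusted p = 0.266) and *Psmc3* highest at 0.06. The FPKM of *Psmc4* in the KO-labelled libraries, 60.64 and 67.42, lay between those of the other groups. The base subunits *Psmd1*, *Psmd2* and *Psmd4* were at -0.13, -0.12 and -0.04. In the lid the values ran from -0.20 for *Psmd11* (adjusted p = 0.362) to 0.25 for *Psmd8* (adjusted p = 0.358), with *Psmd14* at 0.01 (adjusted p = 0.981).

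The KO-labelled libraries were also compared with WT Sham, a comparison that shares libraries with both others. In it 12 of 40 members rose (30%) and 1 fell (2.5%), against 34.8% and 14.3% of all genes tested, so neither share exceeded the background. Both KO-labelled libraries were above both WT Sham libraries in 26 members and below them in 4, against 51.6% and 24.5% of all genes. The median log2 fold change was 0.19 over the members and 0.24 over all genes, and 16 members lay above the latter. The other scalings moved the median of all genes to 0.02 (upper quartile), -0.10 (quantile normalization) and 0.09 (without the 100 most abundant genes), with 2, 6 and 7 members called higher and 5, 2 and 2 lower. Of all genes these scalings called 24.4%, 21% and 27.8% higher and 22.3%, 26.2% and 19.3% lower. By role, 5 of 14 core genes, 4 of 17 regulatory particle genes, 2 of 3 chaperones and 1 of 4 activators rose, and 1 activator fell. The mean log2 fold change was 0.25 over the core and 0.20 over the regulatory particle, and both means were below 0 with upper-quartile scaling (-0.01 and -0.06). Leaving out WT Sham replicate 2 or *Card9* KO MI replicate 1 lowered the number of members called higher, and also that of all genes. The loss was larger in proportion among the members, a difference that was not tested.

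*Psma5* again rose, with FPKM of 43.09 and 41.27 in the KO-labelled libraries (log2 fold change 0.56, SE 0.10, adjusted p = 0.00286), and so did *Psma7* (0.57, adjusted p = 0.0107) and *Psmb4* (0.44, adjusted p = 0.00742). *Psma7* and *Psmb4* lost the call under upper-quartile scaling (adjusted p = 0.089 and 0.149), and *Psma7* without WT Sham replicate 2 (0.0635) or *Card9* KO MI replicate 1 (0.0648). *Psma3* and *Psma4* had adjusted p of 0.0427 and 0.0241 on the deposited scale and were called under none of the 3 scalings. *Psma3* was also lost without WT Sham replicate 2 (0.221), either WT MI library (0.0515 and 0.0507) or either *Card9* KO MI library (0.0587 and 0.172), and *Psma4* without WT Sham replicate 1 (0.067), WT Sham replicate 2 (0.0974) or *Card9* KO MI replicate 1 (0.12). *Psmb5*, *Psmb6* and *Psmb7* were not called on the deposited scale, at 0.25, 0.21 and -0.05 (adjusted p = 0.183, 0.111 and 0.672). Upper-quartile scaling called *Psmb7* lower, at -0.31 (limma adjusted p = 0.0228), along with *Psma1*, *Psmd12*, *Psme1* and *Psme4*.

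In the regulatory particle *Psmd13*, *Psmd14*, *Psmd8* and *Psmc4* rose in that comparison, by 0.66, 0.65, 0.57 and 0.28 on the log2 scale (adjusted p = 0.0124, 0.0122, 0.0103 and 0.047), and upper-quartile scaling called none of them. Quantile normalization called *Psmd13* and *Psmd8*, and scaling without the 100 most abundant genes called these and *Psmd14*. Without WT Sham replicate 2 the adjusted p was 0.0515 for *Psmd13*, 0.0673 for *Psmd14*, 0.0562 for *Psmd8* and 0.184 for *Psmc4*, and without *Card9* KO MI replicate 1 it was 0.0642, 0.0701 and 0.0605 for *Psmd13*, *Psmd14* and *Psmd8*. *Psmc4* also lost the call without WT Sham replicate 1 (0.0781), either WT MI library (0.0783 and 0.0777) or *Card9* KO MI replicate 2 (0.19). The FPKM of *Psmd8* were 82.81 and 64.24 in WT Sham, then 92.25 and 90.35 in WT MI, then 116.78 and 100.8 in the KO-labelled libraries. Those of *Psmd14* in the KO-labelled libraries were 32.2 and 28.7, inside the range of WT MI. *Psmd4* overlapped between the groups (log2 fold change 0.02, adjusted p = 0.909, negative under all 3 other scalings).

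*Psmd10* had the largest rise of the 40 members over WT Sham, where its FPKM was 4.81 and 4.56 (log2 fold change 0.81, SE 0.14, adjusted p = 0.00269). It was called under all 11 alternative limma settings and with each of the 6 libraries left out. *Psmd5*, at 7.81 and 8.14 FPKM in WT Sham, rose by 0.52 (adjusted p = 0.0129), a call lost under each of the 3 scalings and without WT Sham replicate 1 (0.0506) or *Card9* KO MI replicate 1 (0.0605). *Psme2* rose by 0.48 (adjusted p = 0.0133), which likewise was lost under each scaling and without WT Sham replicate 1 (0.0753) or *Card9* KO MI replicate 2 (0.0718). *Psme4* fell, with FPKM of 57.25 and 62.38 (log2 fold change -0.52, adjusted p = 0.00723), under all 11 alternative limma settings and with each library left out. *Psme1* and *Psme3* were at -0.19 and 0.02 (adjusted p = 0.213 and 0.896), and *Psme3* was negative under all 3 other scalings. Under those scalings *Psme1* ran from -0.45 to -0.30. It was called lower with upper-quartile scaling and without the 100 most abundant genes.

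Genes that work with the proteasome but lie outside the naming rule were read from short lists, which were not refitted with single libraries left out. Of 8 other subunits and partners of the 26S proteasome, *Adrm1*, a ubiquitin receptor, rose in WT MI against WT Sham (log2 fold change 0.40, adjusted p = 0.0139, called under none of the 3 scalings) and *Ecpas* fell. *Ecpas* encodes a scaffold that holds core and regulatory particle together, and its FPKM was 49.42 and 50.62 in WT Sham, then 31.26 and 34.31 in WT MI, then 29.75 and 29.82 in the KO-labelled libraries. All 4 infarcted libraries were lower, with log2 fold changes of -0.60 in WT MI (adjusted p = 0.00289) and -0.73 in the KO-labelled libraries (adjusted p = 0.000726) against WT Sham, called under every scaling. *Sem1* rose in the KO-labelled libraries against WT Sham (0.24, limma adjusted p = 0.0429), called under none of the 3 scalings. None of the 5 listed assembly factors was called in WT MI, and *Psmg4* rose in the KO-labelled libraries against WT Sham (0.63, adjusted p = 0.0116, called under 1 of 3 scalings).

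Other catalytic subunits replace the constitutive ones in immune cells and after interferon. *Psmb8*, the replacement for *Psmb5*, was at 12.04 and 8.74 FPKM in WT Sham, then 15.35 and 22.52 in WT MI, then 30.95 and 29.84 in the KO-labelled libraries. *Psmb9*, which replaces *Psmb6*, was at 4.44 and 5.47, 10.09 and 9.41, and 13.04 and 17.91 FPKM in the same order. Neither gene overlapped between any pair of groups. In WT MI against WT Sham they rose by 0.80 and 0.86 (adjusted p = 0.0174 and 0.00805), called under 1 and 2 of the 3 other scalings, and in the KO-labelled libraries against WT Sham by 1.48 and 1.46, called under all 3. Against WT MI the latter libraries gave 0.68 and 0.60, with an adjusted p of 0.131 for each. Of the 4 genes in this list, 2 rose in WT MI and 3 in the KO-labelled libraries against WT Sham, the third being *Psmb10* (0.42, adjusted p = 0.0284, called under none of the other scalings), and none was called between the infarcted groups. Exons of *Psmb8* and *Psmb9* overlap those of *Gm20496* and *Tap1*, protein-coding genes on the opposite strand. Reads of these partners cannot be told apart here either.

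Of 7 genes around the transcription factor that induces proteasome genes, *Nfe2l1* itself fell. Its FPKM was 159.32 and 166.56 in WT Sham, then 112.2 and 112.24 in WT MI, then 90.72 and 104.31 in the KO-labelled libraries. The infarcted libraries were lower without overlap (log2 fold change in WT MI -0.53, adjusted p = 0.00445), under every scaling. *Ddi2*, the protease that activates the factor, rose in WT MI by 0.77 (adjusted p = 0.0127) and the related factor *Nfe2l2* by 0.49 (adjusted p = 0.00975), called under 2 and 1 of the 3 other scalings. None of the 7 was called between the infarcted groups.

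Among 6 genes of ubiquitin and its activating enzymes, *Rps27a*, *Uba6* and *Uba1* rose in WT MI against WT Sham by 1.09, 0.94 and 0.37, the last under none of the 3 other scalings. In the KO-labelled libraries against WT Sham *Rps27a*, *Uba6* and *Ubb* rose, called under 3, 2 and 1 of the other scalings. Of 4 ubiquitin ligases of striated muscle, *Fbxo32*, *Trim63* and *Trim54* fell in WT MI against WT Sham under every scaling, with log2 fold changes of -0.73, -0.45 and -0.42. *Trim54*, which binds the sarcomere, was also the only gene of these 6 lists called between the infarcted groups. Its FPKM was 174.01 and 138.01 in WT Sham, then 118.4 and 113 in WT MI, then 67.47 and 73.27 in the KO-labelled libraries (log2 fold change against WT MI -0.71, adjusted p = 0.0469, called under every scaling).

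Markers of cell types moved with the groups over which the proteasome genes were compared. Of 10 cardiomyocyte markers, 8 fell in WT MI against WT Sham and 10 in the KO-labelled libraries. Upper-quartile scaling called 10 lower in each comparison, while quantile normalization called 7 lower and *Actc1* higher in each. The sums of their FPKM were 61693 and 62766 in WT Sham, then 35533 and 36828 in WT MI, then 29459 and 34012 in the KO-labelled libraries, with *Actc1* the most abundant over all libraries together but below *Mb* and *Myl2* in WT Sham. All 11 macrophage markers rose in both comparisons with WT Sham, under every scaling. Their sums were 362 and 302 in WT Sham, then 1318 and 1678 in WT MI, then 2665 and 1909 in the KO-labelled libraries, with *Lyz2* the most abundant. The cardiomyocyte sum was thus lowest, and the macrophage sum highest, in the KO-labelled libraries. On the deposited scale no marker of either list was called between the infarcted groups. There *Myh6* (log2 fold change 0.06) and *Itgam* (-0.10) went against the direction of the other markers of their lists. All 6 listed neutrophil markers rose in both comparisons, with sums of 7.64 and 5.40 in WT Sham, then 212 and 92.9 in WT MI, then 59.8 and 46.7 in the KO-labelled libraries, led by *S100a9* in all but WT Sham replicate 2. None was called between the infarcted groups, although for all 6 both KO-labelled libraries were below both WT MI libraries. *Ly6g* was not listed, and *Mmp8* was absent from WT Sham replicate 2 and taken as 0. In the KO-labelled libraries against WT Sham, upper-quartile scaling kept 5 of these 6 calls, quantile normalization 4, and scaling without the 100 most abundant genes 5. Between the infarcted groups quantile normalization called 2 macrophage markers higher, and the other scalings called none.

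Of 7 fibroblast markers 6 rose in each comparison with WT Sham (5 in the KO-labelled libraries under the other scalings), and *Col1a1*, *Col1a2* and *Postn* also rose in the KO-labelled libraries against WT MI. The list did not move as a whole there, since *Pdgfra* was below WT MI in both libraries (log2 fold change -0.52, adjusted p = 0.0939) and *Dcn* was at -0.16, neither called. Their sums were 507 and 482 in WT Sham, then 1474 and 1996 in WT MI, then 3176 and 3050 in the KO-labelled libraries, with *Col1a1* the most abundant over all libraries together but below *Dcn* in WT Sham and below *Col3a1* in WT Sham and WT MI replicate 1. All 7 genes of dividing cells rose in both comparisons with WT Sham, from sums of 9.57 and 5.71 to 58.1 and 70.2 in WT MI hearts and 117 and 95.1 in the KO-labelled libraries, led by *Mki67* over all libraries together, though *Mcm2* was above it in WT Sham and WT MI replicate 1. Of 6 endothelial markers *Kdr* fell in WT MI against WT Sham and *Pecam1* rose on the deposited scale alone, with sums of 319 and 314 in WT Sham, then 342 and 335 in WT MI, then 387 and 383 in the KO-labelled libraries, led by *Cdh5*. In the KO-labelled libraries against WT Sham *Kdr* fell while *Pecam1* and *Cdh5* rose, under every scaling, and upper-quartile scaling and quantile normalization called *Tek* lower in both comparisons. Of 5 lymphocyte markers 2 were tested and none was called on the deposited scale, the sums lay between 2.81 and 4.69 in all 6 libraries, and *Cd3e* and *Ms4a1* were absent from WT Sham replicate 2 and taken as 0. The marker lists were not refitted with single libraries left out, and the part these cell types had in the levels of the proteasome genes was not tested. In such bulk samples fewer cells of a type and less RNA per cell cannot be told apart.

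The mean log2(FPKM + 1) of the 31 tested subunits of both particles was 5.96 and 5.88 in WT Sham, then 6.21 and 6.15 in WT MI, then 6.18 and 6.11 in the KO-labelled libraries. In each group replicate 1 was the higher, and the 2 sham libraries lay below the other 4. Among 13080 tested genes outside the naming rule, those with the profile most like this mean over the 6 libraries were *Uso1*, *Trim16*, *Rhbdf2*, *Ptpn12* and *Fstl3*, with Pearson r from 0.9968 to 0.9992, given as a description of libraries that fall into 3 groups.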

How the data were processed

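RNA was extracted with TRIzol and oligo(dT)-selected for TruSeq libraries, per the labels. The FPKM values were deposited by the authors, 1 file per library, and per the submitters' processing notes the reads were mapped to mm9 with BWA and Bowtie2; the annotation, the strand and the counting tool are not given in the sources used here. Genes missing from a file were set to 0. Read counts could not be rebuilt: the fragments estimated from the steps between low values were 3170000 and 3030000 for the sham hearts, 4040000 and 3930000 for WT MI and 4300000 and 4130000 for the KO-labelled hearts, but only 70.5% to 74.6% of the low values lay near whole fragments. At that depth a transcript of 2 kb with 3 fragments has an FPKM of 0.349 to 0.495. Replicates correlated across genes with r of 0.980, 0.981 and 0.980, and the median absolute log2 difference between replicates of the members was 0.103, 0.112 and 0.139 (sham, WT MI, KO-labelled).

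Groups and replicate numbers were taken from the sample titles. Values of log2(FPKM + 1) of the genes that reached an FPKM of 1 in 2 or more of the 6 libraries were fitted in 1 model of 3 groups with limma 3.58.1 (R 4.3.3; empirical Bayes with a trend in the mean), with Benjamini-Hochberg adjustment over all genes tested and a threshold of 0.05. The code was tested on simulated data. With 2 libraries against 2, the smallest exact two-sided permutation p is 0.333, so rank tests could not be used. The alternatives changed the pseudocount, the filter, the scaling, the samples in the fit, the variance model, a replicate block and the libraries included, and recomputed the study's own screen on group means. Positions and exon overlaps came from the GENCODE annotation of mm9, and promoter windows from the RefSeq table for GRCm38.p6. Tables and figures used Python 3.11.15, numpy 2.4.6, pandas 2.3.3 and matplotlib 3.10.9.

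Named with values were *Psmb5*, *Psmb6*, *Psmb7*, *Psmd14*, *Psmd4*, *Psme1*, *Psme2*, *Psme3* and *Psme4*; in each class the member with the highest and the lowest log2 fold change in WT MI against WT Sham and in the KO-labelled libraries against WT MI; members called where most of their class were not, and the reverse; members that failed the filter; up to 4 genes of each other list by absolute log2 fold change; *Card9*; and the 5 nearest profiles. *Lcn2*, the lowest of all genes tested between the infarcted groups, was added after the values were seen. Members and lists were chosen with earlier results of these data known. The result of 1 gene of the other lists is not reported.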

Additional observations from a re-analysis of the deposited data

How the results depend on the processing

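The counts of called members in WT MI against WT Sham depended on the scale. The 11 members called higher became 1 (upper quartile), 2 (quantile normalization), 3 when libraries were scaled without the 100 most abundant genes and 4 with empirical Bayes without trend, and the screen of the study on group means passed 0. The 1 member called lower became 3 (upper quartile), 2 with quantile normalization, 2 without the 100 most abundant genes and 0 in the screen, which 6.06% of all genes passed as higher and 0.906% as lower. In the KO-labelled libraries against WT Sham the 12 members called higher became 2 (upper quartile), 6 with quantile normalization, 7 without the 100 most abundant genes and 0 in the screen, and the 1 called lower became 5, 2, 2 and 0 in the same order, where the screen passed 8.56% and 1.94% of all genes. Other pseudocounts and filters changed these counts less. In the KO-labelled libraries against WT MI no member was called in any setting.

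With a library left out the lone library of its group is assumed to vary like those of the other groups. Members called higher ranged from 2 to 12 and lower from 0 to 1 in WT MI against WT Sham. They ranged from 5 to 11 and from 1 to 1 in the KO-labelled libraries against WT Sham, and from 0 to 0 in both directions between the infarcted groups.

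The median log2 fold change of the members minus that of all genes, 0.03 in WT MI against WT Sham, moved to 0.12 without a filter and 0.13 with quantile normalization. It was 0.0071 with upper-quartile scaling and 0.0092 with log2(FPKM + 0.1), and from -0.0026 (without WT Sham replicate 2) to 0.042 with a library left out. In the KO-labelled libraries against WT MI it went from -0.07 to 0.0047 with quantile normalization, and from -0.083 to -0.052 with a library left out. Against WT Sham it went from -0.05 to 0.023 with log2(FPKM + 5), 0.047 without a filter and 0.11 with quantile normalization, but to -0.091 with log2(FPKM + 0.1), -0.0899 with upper-quartile scaling and -0.075 without the 100 most abundant genes. With a library left out it ranged from -0.0913 (without *Card9* KO MI replicate 1) to -0.048. The core minus the regulatory mean moved with quantile normalization from 0.023 to 0.043 in WT MI against WT Sham and from 0.051 to 0.068 in the KO-labelled libraries against WT Sham.

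Log2 fold changes of single members that changed sign under another scaling were all of members without a call in that comparison. In WT MI against WT Sham, with upper-quartile scaling, quantile normalization and without the 100 most abundant genes, *Psmb6* went from 0.10 to -0.12, -0.038 and -0.046, *Psmd4* from 0.05 to -0.17, -0.13 and -0.094, and *Psmd9* from 0.04 to -0.16, -0.24 and -0.097. *Psme2* went from 0.18 to -0.042 with upper-quartile scaling and to -0.011 with quantile normalization, and *Psmd10* from 0.26 to -0.047 with quantile normalization. Between the infarcted groups upper-quartile scaling gave -0.023 for *Psmb7*, -0.0033 for *Psma7* and -0.024 for *Psmd14*, scaling without the 100 most abundant genes gave -0.0072 for *Psmb7* and -0.0084 for *Psmd14*, and quantile normalization gave 0.038 for *Psme4*. Against WT Sham, in the KO-labelled libraries, upper-quartile scaling gave -0.0063 for *Psmb5* and -0.052 for *Psmb6*. There *Psmd4* became -0.24 (upper quartile), -0.15 (quantile normalization) and -0.15 without the 100 most abundant genes, and *Psme3* became -0.23, -0.14 and -0.15.

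Some log2 fold changes crossed 0 when 1 library was left out. In WT MI against WT Sham the ranges were -0.11 to 0.043 for *Psma1*, -0.087 to 0.061 for *Psmc3*, -0.093 to 0.049 for *Psmd12*, -0.006 to 0.12 for *Psmd4* and -0.18 to 0.25 for *Psmd9*. Between the infarcted groups they were -0.088 to 0.15 for *Psma7*, -0.24 to 0.11 for *Psmb5*, -0.013 to 0.0398 for *Psmb7*, -0.0032 to 0.13 for *Psmc3*, -0.20 to 0.22 for *Psmd14*, -0.13 to 0.051 for *Psmd4*, -0.0295 to 0.16 for *Psme1* and -0.14 to 0.13 for *Psme4*. Against WT Sham the KO-labelled libraries gave -0.10 to 0.005 for *Psmb7*, -0.072 to 0.11 for *Psmd4* and -0.13 to 0.18 for *Psme3*. Over other settings the label of single-member results was unchanged in 618 cases, weaker in 64, stronger in 7 and reversed in 26, and with a library left out unchanged in 306, weaker in 57 and reversed in 27.

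Replicate numbers were checked for pairing: the correlations of replicate 1 minus replicate 2 between groups were 0.002, -0.008 and 0.02, so the numbers were not shown to pair libraries. With a replicate block in the fit 11 members were higher and 1 lower in WT MI against WT Sham, 0 and 0 between the infarcted groups, and 10 and 1 in the KO-labelled libraries against WT Sham, where *Psma3* (adjusted p = 0.0508) and *Psmc4* (0.0649) were no longer called.

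The gene-level FPKM of *Card9*, the gene named in the genotype, was not lower in the libraries labelled as knockout. It lay above WT MI without a call (log2 fold change 0.85, limma adjusted p = 0.112), and the cause was not tested. Limits are 2 libraries per group, values that were already scaled, tissue whose cell markers differed between groups, and transcript levels that do not measure subunit protein or proteasome activity.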
